A study of Mus musculus with 18 samples.

Results

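The 36 genes described here make and run the lysosome, and they were taken by symbol from the gene count table of RAW 264.7 cells, a mouse macrophage-like cell line. They were 9 cathepsins (the main lysosomal proteases), 7 glycosidases, 6 genes of lipid handling and saposins, 7 membrane proteins, 5 subunits of the vacuolar proton pump (V-ATPase) and the transcription factors Tfeb and Tfe3, 36 of 56748 genes listed. Of these 36, 35 were among the 13691 genes with enough counts to be tested. RNA was sequenced in 18 libraries, 3 biological replicates for each of 6 groups. The control stayed in medium without treatment, a second group received tert-butylhydroquinone (TBHQ), a phenolic food antioxidant, at 5 µM for 4 h, and others received lipopolysaccharide (LPS) at 0.1 µg/mL or poly I:C (PIC), a synthetic mimic of viral RNA, at 20 µg/mL for 12 h. In the LPS + TBHQ and PIC + TBHQ groups, the same stimulus for 12 h followed 4 h of TBHQ. Cells given TBHQ alone were collected at 4 h while the study places the others, with the control in medium only, in its 12 h scheme, so the exposure and the time of collection cannot be told apart in their comparison with the control. Where TBHQ alone and TBHQ before a stimulus differ below, the stimulus and the time since TBHQ cannot be told apart either. It is not given in the sources used here whether TBHQ was removed before the stimulus. The study dissolved TBHQ in DMSO and names no DMSO for the sequenced groups without TBHQ. Effects of TBHQ and of its solvent can therefore not be told apart in any comparison below. All libraries came from 1 cell line, and each held 14423390 to 18851626 counts (median 15742337), at which 3 counts were worth 0.159 to 0.208 CPM (counts scaled to the library's total).

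Lysosomal hydrolases are made in the endoplasmic reticulum and are mostly sorted to lysosomes by mannose phosphate tags, and they work at the acidic pH that the V-ATPase keeps by pumping protons inward. TFEB and TFE3 are held in the cytosol by mTORC1 at the lysosomal surface while nutrients are plentiful, and otherwise enter the nucleus and bind E-box words (CACGTG and its longer form GTCACGTG) near the promoters of many lysosomal genes. In macrophages the same organelle digests engulfed particles, prepares antigens and releases cholesterol from lipoproteins.

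Gene positions are those of the count table. Levels are given as FPKM (fragments scaled by gene length, library total and a further constant of each library in the deposited values), and changes as log2FC from edgeR, with the SE of the replicates' log2 CPM. That constant differed by group, with means of 0.947 in the control, 0.95 after TBHQ alone, 1.01 and 1.11 with LPS and PIC, and 0.995 and 1.05 where TBHQ preceded them, so levels in FPKM stand higher with PIC against the control than library totals alone would put them. The TMM factors, by which library totals were multiplied for the log2FC, ran from 1.068 in replicate 3 of the control to 0.911 in replicate 2 of PIC, so that both scalings raise PIC against the control. With counts over library totals alone, tried after the values were seen, the order of the libraries of 2 groups (above, below or overlapping) was as in FPKM in 195 of 280 cases (35 members in 8 comparisons), and in all 35 for TBHQ alone. A separation was lost in 28, gained in 48 and reversed in 9 cases, and where this changes an order stated below for a gene given in full, it is named there. Lysosomal transcripts were abundant. In the control, the median of the 35 tested members was 103 FPKM against 5.59 FPKM for all genes tested, and 34 of the 35 lay above that median. Ctsd was highest, with a mean of 922 FPKM, followed by Gpnmb (884), Ctss (822), Ctsb (769.6), Cd68 (670.2) and Ctsz (659). Ctsd, Gpnmb and Ctss together held 33.5% of the FPKM of the 36 genes, and 18 genes stood above 100 FPKM. At the low end, Tfe3 had 8.85 FPKM and Tfeb 2.09 FPKM. Ctsh, an aminopeptidase, did not pass the filter on low counts: it had 3, 2 and 0 counts in the control, 2, 1 and 3 with LPS, and between 0 and 3 in each of the other 12 libraries. The 36 genes held 2.91% ± 0.0893 (SD, n = 3) of the counts in the control and 2.61% ± 0.0219 (SD, n = 3) with PIC, the highest and lowest group means. Replicates lay close, with a median SD of log2 CPM of 0.0426 for the members and 0.104 for all genes tested. High level and small spread both make a call easier. The shares of all genes called, given below, were not matched to the members in level or spread. A higher share among the members therefore need not mean larger or more frequent changes.

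The cells carried macrophage markers in every library. All 10 macrophage markers were tested, and their summed level lay between 5442 and 6379 FPKM, with Lyz2 the most abundant at 3399 to 4647 FPKM. T cell, fibroblast and epithelial markers did not pass the filter on low counts in any case, their summed levels reached at most 0.0582, 0.122 and 0.0279 FPKM, and Cd3e, Cd8a, Col1a2, Krt8 and Krt18 were at 0 counts throughout. Osteoclast markers, which RAW 264.7 cells can acquire, were present in part, and 7 of 8 were tested. Acp5, the most abundant over all libraries, lay between 44.7 and 70.2 FPKM. Mmp9 stood above it in every PIC and PIC + TBHQ library (67.7 to 78.8 FPKM). Oscar lay between 0.381 and 1.69 FPKM and Itgb3 between 0.0826 and 0.296 FPKM. Calcr, with at most 2 counts in a library, was not tested. A lower share of a cell state and less RNA per cell cannot be told apart in such bulk libraries.

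After TBHQ alone, lowered members outnumbered raised ones. Once 4 h had passed, 19 of 35 members (54.3%) were lower than in the control at an edgeR FDR below 0.05, against 14.8% of all genes tested. In each of the 19 the 3 TBHQ libraries lay below the 3 control libraries, as they did in 20.7% of all genes tested. This separation is not independent of the call. The 4 members that were higher (11.4%, against 14.2% of all genes) were Lipa, Tfe3, Npc1 and Lamp1, and the median log2FC was -0.17 over the members and 0.00 over all genes. The counts of 4 and 19 were the same with RLE factors or total library size as the scaling. Markers of cell state moved in the same comparison. Of 7 osteoclast markers tested 5 were lower and 0 higher (edgeR, 0 by DESeq2 and 0 at an unadjusted p below 0.05), with a median log2FC of -0.49. Of 10 macrophage markers 5 were lower, Fcgr1 furthest, and 1 (Csf1r) was higher, or 6 and 1 with total library size. Their part in the lower levels of the members was not tested.

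LPS and PIC moved the members in both directions. LPS gave 8 members (22.9%) above the control and 14 (40.0%) below, beside 24% and 24.1% of all genes. PIC gave 13 (37.1%) above and 15 (42.9%) below, beside 28.6% and 30.1% of all genes. The members' median log2FC was -0.04 with LPS and -0.05 with PIC, and over all genes it was 0.00 and -0.01. These splits depended on the scaling: with total library size they became 6 higher and 22 lower for LPS, and 6 and 24 for PIC. All genes moved likewise, to 17.9% higher and 33.3% lower for LPS and 17.4% and 48.5% for PIC, where their median log2FC was -0.23. When each stimulus after TBHQ was set against the control, LPS + TBHQ gave 12 higher and 14 lower (background 21.2% and 22.5%) and PIC + TBHQ 12 higher and 10 lower (26.4% and 26%). Total library size changed these to 9 and 20, and to 10 and 21, beside 16.7% and 29.5%, and 17.3% and 40.3%, of all genes. Of 10 macrophage markers LPS gave 4 higher and 3 lower, and PIC 5 and 4, or 3 and 3, and 4 and 4, with total library size. Their log2FC with LPS and PIC was -0.75 and -0.85 for Csf1r, and 1.45 and 1.86 for Adgre1. Osteoclast markers, 7 tested, gave 2 and 2, and 3 and 3, or 2 and 1, and 3 and 1, by DESeq2. The markers' part in the members' changes was not tested.

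The changes were small in size. Among members called in a comparison of 2 groups, the median absolute log2FC lay between 0.16 and 0.45. Among those members a change above 2-fold was reached by Tfeb (PIC against control) and Ctsl (PIC + TBHQ against control), and by no other. For all genes called in the same comparisons the median lay between 0.27 and 0.49, and 6.65% to 22.5% of them changed by more than 2-fold. In PIC + TBHQ against the control the members' median exceeded that of all genes called (0.45 against 0.42). At an edgeR FDR below 0.01 with an absolute log2FC above 2, 0 of 35 members were called in any comparison with the control, and the same count was 0 by DESeq2 and 0 at an unadjusted p below 0.05 past that fold change. Of all genes tested, 0.19% passed this threshold after TBHQ alone, 1.64% after LPS and 3.57% after PIC, and 0.964% and 2.15% where TBHQ preceded LPS and PIC.

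**Figure D1:**
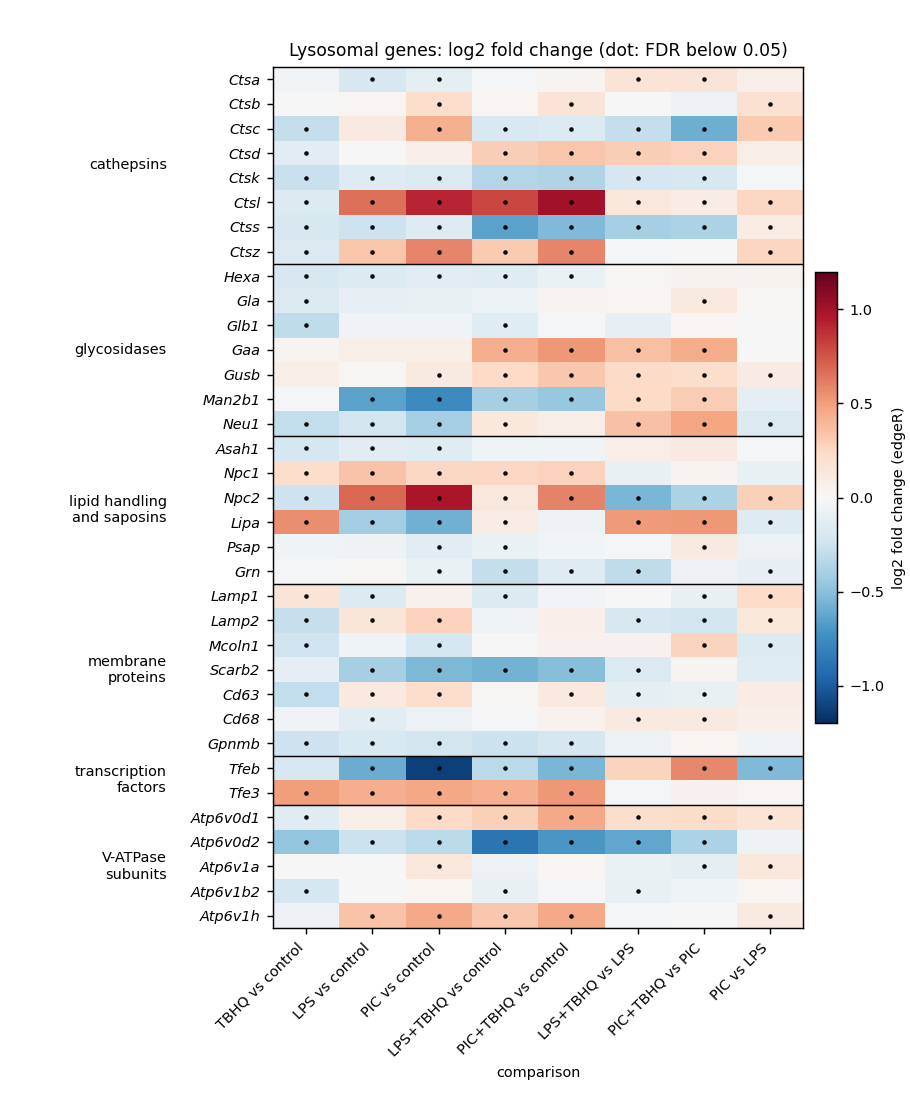
Log2FC of the 35 tested lysosomal genes (vertical axis, by role) in 8 comparisons (horizontal axis), with a dot where the edgeR FDR was below 0.05. In the first column 19 genes were lower and 4 higher, under TMM, RLE and total library size alike, and the lowest and highest values in the whole map were -1.12 for Tfeb (PIC against control) and 1.01 for Ctsl (PIC + TBHQ against control).

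TBHQ given before the stimulus moved many of the same members under LPS and under PIC. In LPS-stimulated cells 10 members (28.6%) were higher and 10 lower with TBHQ, beside 11.7% and 12.2% of all genes, with a median log2FC of -0.01 (0.00 over all genes). In PIC-stimulated cells 14 (40.0%) were higher and 9 (25.7%) lower, beside 15.8% and 15.5%, with a median of 0.03 (0.01 over all genes). With total library size these became 10 and 7, and 19 and 6, beside 15.1% and 10.2%, and 24.8% and 10.5%, of all genes. The libraries of the 2 comparisons are distinct. In each, 2 of 10 macrophage markers were higher with TBHQ and 4 lower. Under LPS these became 3 and 3 with total library size, and the 4 became 2 without replicate 3 of LPS. Under LPS and PIC, Csf1r had log2FC values of 0.39 and 0.45, Lyz2 0.25 and 0.22, and Fcgr1 -1.37 and -1.08. The markers' part in the changes of the members was not tested. All 10 members raised by TBHQ with LPS were raised with PIC too, which is 71.4% of the 14, and 7 were lowered in both, 70.0% of the 10 and 77.8% of the 9. For all genes the shared part was 1101 genes higher (68.8% of the LPS list, 50.8% of the PIC list) and 1208 lower (72.2% and 57.0%). A test of the difference between the TBHQ effects called 1 member as higher (Grn) and 1 as lower (Ctsc) in PIC than in LPS, beside 0.825% and 1.01% of all genes, while 9 and 2 members had an unadjusted p below 0.05. Total library size made these 5 and 1, beside 1.72% and 0.541% of all genes, and the count of 1 became 2 without replicate 1 or 2 of LPS, replicate 2 of PIC or replicate 3 of LPS + TBHQ.

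Between the stimuli, 12 members (34.3%) were higher with PIC than with LPS and 5 (14.3%) lower, beside 14.9% and 12.8% of all genes. The 5 were Tfeb, Neu1, Mcoln1, Lipa and Grn, named after their values were seen. These counts turned with the scaling, as those of all genes did: total library size gave 5 members higher and 17 lower, beside 7.19% and 31.9% of all genes, whose median log2FC moved from -0.01 to -0.14. The 5 lower became 2 without replicate 3 of LPS, and 3 without replicate 1 or 2 of PIC.

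**Figure D2:**
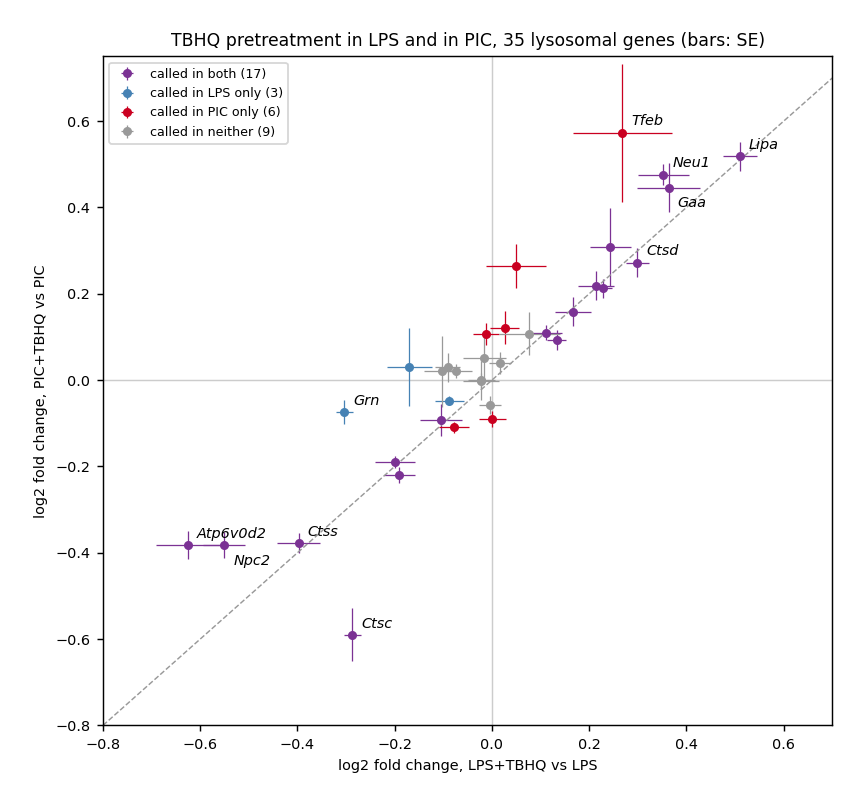
Log2FC of LPS + TBHQ against LPS (horizontal axis) and of PIC + TBHQ against PIC (vertical axis) for 35 lysosomal genes, bars being SE and the dashed line equal effects. The 17 genes called in both comparisons lay in the lower left (7) and upper right (10) corners, Ctsc fell further with PIC and Grn fell with LPS, and with total library size 19 in place of 14 genes were higher and 6 in place of 9 lower in PIC. With RLE factors 12 were higher and 11 lower there.

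Among the cathepsins, 6 of 8 tested were lower after TBHQ alone, at every scaling tried, beside 14.8% of all genes with TMM. Ctsa and Ctsb were not called. LPS raised 2 (Ctsl and Ctsz) and lowered 3 (Ctss, Ctsa and Ctsk), where 24% of all genes were raised and 24.1% lowered. PIC raised 4 and lowered 3, against shares of 28.6% and 30.1%. Total library size changed the LPS counts to 2 and 5, against 17.9% and 33.3%. It changed the PIC counts to 3 and 4, against 17.4% and 48.5%. The 2 raised by LPS with TMM, and the 4 lowered by PIC with total library size, lay near these shares. TBHQ before the stimulus gave 3 higher and 3 lower with each of LPS and PIC under TMM and total library size. Under RLE it gave 2 higher and 4 lower with PIC. The TMM shares of all genes for TBHQ before LPS were 11.7% and 12.2%, and before PIC 15.8% and 15.5%. Ctsl (ENSMUSG00000021477, chr13:64507151-64518704, minus strand), which encodes a cysteine endopeptidase, rose most among the cathepsins with either stimulus. Its level was 107, 105 and 98.3 FPKM in the control and 91.0, 93.1 and 92.3 FPKM after TBHQ alone. With LPS it was 169, 162 and 163 FPKM, and 179, 180.4 and 183 FPKM with LPS + TBHQ. PIC gave 196, 203 and 193 FPKM and PIC + TBHQ 207, 211 and 208 FPKM. The groups formed 6 steps without overlap, lowest after TBHQ alone and highest with PIC + TBHQ, but by library totals alone the LPS + TBHQ and PIC libraries overlapped. The log2FC was 0.66 ± 0.0398 (SE, edgeR FDR = 1.7e-19) with LPS and 0.92 ± 0.0432 (SE, edgeR FDR = 5.83e-24) with PIC. For TBHQ alone it was -0.17 ± 0.0377 (SE, edgeR FDR = 7.36e-05), whereas TBHQ before LPS gave 0.13 ± 0.0186 (SE, edgeR FDR = 0.00123).

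Ctsz (ENSMUSG00000016256, chr2:174269286-174280832, minus strand), a carboxypeptidase of the same family, had 676, 660.1 and 641 FPKM in the control and 576, 593 and 582 FPKM after TBHQ alone. With LPS the values were 827, 809 and 866 FPKM, and with LPS + TBHQ 801, 817 and 846 FPKM. With PIC they were 999, 1014 and 993 FPKM, and with PIC + TBHQ 1015, 982 and 984 FPKM. Both stimuli stood above the control in every library and PIC above LPS, while the libraries with and without TBHQ overlapped under each stimulus. By library totals alone those of PIC + TBHQ lay above those of PIC. The log2FC was 0.59 ± 0.0253 (SE, edgeR FDR = 2.34e-18) with PIC and -0.18 ± 0.0265 (SE, edgeR FDR = 2.69e-05) with TBHQ alone.

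Ctss (ENSMUSG00000038642, chr3:95434097-95463714, plus strand) encodes the endopeptidase that trims the invariant chain of MHC class II molecules. It had 793, 849.7 and 823 FPKM in the control and 720.0, 732 and 711 FPKM after TBHQ alone. LPS libraries had 661, 724 and 706 FPKM and LPS + TBHQ libraries 518, 533 and 537 FPKM. PIC libraries had 749.6, 764 and 732 FPKM and PIC + TBHQ libraries 571, 583 and 562 FPKM. The 6 libraries that received TBHQ before a stimulus lay below the other 12. The log2FC of Ctss with TBHQ was -0.40 ± 0.0447 (SE, edgeR FDR = 8.25e-12) under LPS and -0.38 ± 0.0234 (SE, edgeR FDR = 2.45e-11) under PIC.

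Ctsc (ENSMUSG00000030560, chr7:87927293-87960096, plus strand), a dipeptidyl peptidase that activates granule serine proteases, had 18.1, 16.4 and 16.8 FPKM in the control and 13.5, 14.3 and 14.3 FPKM after TBHQ alone. With LPS it had 18.4, 18.8 and 18.4 FPKM, and 15.1, 15.2 and 15.4 FPKM with LPS + TBHQ. PIC raised it to 23.4, 22.6 and 23.8 FPKM, and PIC + TBHQ libraries had 16.4, 15.4 and 14.3 FPKM. The 3 PIC libraries were the highest of the 18, and no PIC + TBHQ library exceeded a control library. Under PIC the log2FC with TBHQ was -0.59 ± 0.0617 (SE, edgeR FDR = 1.62e-12), under LPS it was -0.29 ± 0.0168 (SE, edgeR FDR = 1.26e-05), and the difference between them was -0.30 ± 0.0639 (SE, edgeR FDR = 0.00778).

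The remaining cathepsins are given in short. Ctsd, the main aspartic protease, had group means of 921 FPKM with LPS and 1135 FPKM with LPS + TBHQ, and rose with TBHQ by a log2FC of 0.30 under LPS and 0.27 under PIC, without overlap of libraries. In the reference transcripts 32.4% of its words of 50 bases also occurred in Gm49369, which overlaps Ctsd on the same strand and was given a mean of 0.111 counts (0.000303% of those of Ctsd). How reads that fit both were counted is not given, so the value of Ctsd is uncertain. Ctsa, a carboxypeptidase that also stabilizes other hydrolases, rose with TBHQ by 0.17 under LPS and 0.16 under PIC. Ctsb, an endopeptidase, had log2FC values between -0.06 and 0.21 in the 8 comparisons of 2 groups. Ctsk, a collagen-degrading protease prominent in osteoclasts, was lower in all 5 comparisons with the control, with log2FC values from -0.36 (PIC + TBHQ) to -0.15 (LPS). Osteoclast markers are given beside it, with mean summed levels of 128 FPKM in the control and 106 FPKM after TBHQ alone, 176 and 166 FPKM in LPS cells without and with TBHQ, and 194.5 and 180.1 FPKM in PIC cells without and with it. The rise of this sum with the stimuli lay in Mmp9, with group means of 9.91 FPKM in the control, 58.6 with LPS and 76.4 with PIC, and the sum of the others was 118, 117 and 118 FPKM. Without the constant of each library these sums of the others were 124.6, 115.8 and 106.1. Leaving out Mmp9 was chosen after the values were seen, and the markers' part in the level of Ctsk was not tested.

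**Figure D3:**
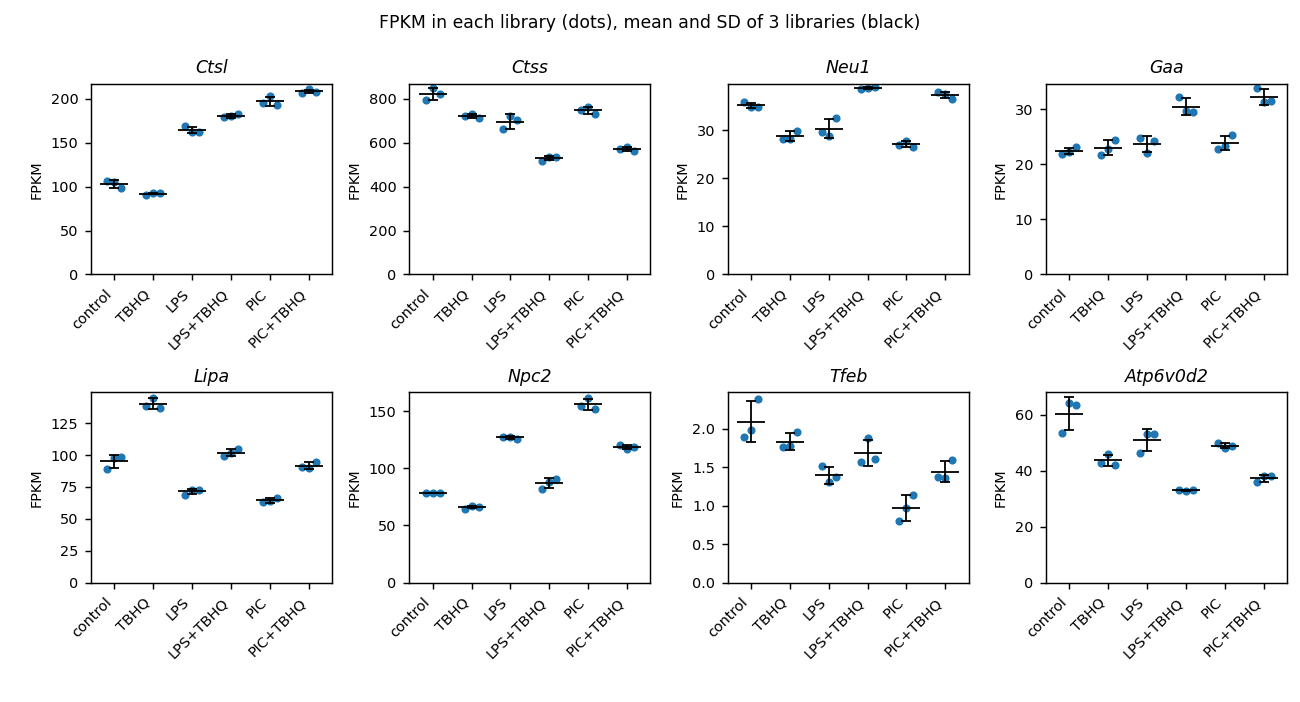
FPKM (vertical axis) of 8 lysosomal genes in each of 18 libraries (dots) by group (horizontal axis), with the mean and SD of 3 libraries in black. Npc2 stood at 128, 127 and 126 FPKM with LPS and at 82.0, 87.7 and 90.6 FPKM with LPS + TBHQ, whereas Lipa stood at 69.1, 72.5 and 72.9 FPKM with LPS and 99.2, 102 and 105 FPKM with LPS + TBHQ.

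Glycosidases remove sugars from glycoproteins, glycolipids and glycogen. Of 7, 4 were lower after TBHQ alone (Glb1, Neu1, Hexa and Gla), and before a stimulus TBHQ raised 4 under LPS (Gaa, Gusb, Man2b1 and Neu1) and 5 under PIC, among them the same 4. Of the 4 lowered by TBHQ alone, only Neu1 was raised under LPS, and Neu1 and Gla were raised under PIC. Glb1 and Hexa were not called with TBHQ under either stimulus. The counts of 4 held under each scaling, and that of 5 was 4 with RLE and 6 with total library size. Of all genes, 14.8% were lower after TBHQ alone, and TBHQ raised 11.7% under LPS and 15.8% under PIC. LPS and PIC each lowered 3 of 7, beside 24.1% and 30.1% of all genes. Total library size raised these counts to 5 and 7, beside 33.3% and 48.5%. PIC raised 1 (Gusb, lowered with total library size) and LPS raised 0 by edgeR, beside 28.6% and 24% of all genes. With total library size each raised 0 (edgeR), beside 17.4% and 17.9%. By DESeq2 PIC raised 1 and LPS 0, and where edgeR gave 0 there were 0 at an unadjusted p below 0.05. Man2b1 (ENSMUSG00000005142, chr8:85809899-85824911, plus strand), the lysosomal alpha-mannosidase, fell most among them with the stimuli. It had 11.2, 12.2 and 11.9 FPKM in the control and 11.4, 11.7 and 12.0 FPKM after TBHQ alone. LPS brought 7.24, 7.58 and 7.93 FPKM, and LPS + TBHQ 9.21, 8.83 and 8.94 FPKM. PIC brought 6.71, 6.47 and 7.87 FPKM, and PIC + TBHQ 9.01, 8.40 and 8.53 FPKM. Stimulated libraries lay below every control library, those with TBHQ above those without, and the control and TBHQ alone overlapped. The log2FC was -0.64 ± 0.052 (SE, edgeR FDR = 2.77e-12) with LPS and -0.76 ± 0.0918 (SE, edgeR FDR = 2.12e-14) with PIC. TBHQ raised it by 0.24 ± 0.0426 (SE, edgeR FDR = 0.00111) under LPS and 0.31 ± 0.0907 (SE, edgeR FDR = 5.46e-05) under PIC.

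Neu1 (ENSMUSG00000007038, chr17:35150229-35154929, plus strand), the sialidase that removes terminal sialic acid, had 35.8, 35.0 and 34.8 FPKM in the control and 28.3, 28.2 and 29.9 FPKM after TBHQ alone. In LPS libraries it had 29.6, 28.9 and 32.5 FPKM, and in LPS + TBHQ libraries 38.6, 38.8 and 39.0 FPKM. In PIC libraries it had 26.9, 27.8 and 26.6 FPKM, and in PIC + TBHQ libraries 38.0, 37.6 and 36.6 FPKM. The order was thus reversed between TBHQ alone, below the control, and TBHQ before a stimulus, above both the stimulus and the control in every library. By library totals alone the PIC + TBHQ libraries lay above PIC but below the control. Neu1 was not called in PIC + TBHQ against the control, with a log2FC of 0.08 ± 0.0197 (SE, edgeR FDR = 0.106). The log2FC with TBHQ was -0.29 ± 0.0292 (SE, edgeR FDR = 1.35e-06) without a stimulus, 0.35 ± 0.0523 (SE, edgeR FDR = 3.07e-08) under LPS and 0.48 ± 0.0242 (SE, edgeR FDR = 3.43e-11) under PIC.

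Gaa (ENSMUSG00000025579, chr11:119158713-119176280, plus strand), which degrades glycogen, had 21.9, 22.3 and 23.1 FPKM in the control and 21.7, 22.8 and 24.4 FPKM after TBHQ alone. LPS gave 24.7, 22.0 and 24.2 FPKM, LPS + TBHQ 32.3, 29.7 and 29.4 FPKM. PIC gave 22.8, 23.3 and 25.2 FPKM, PIC + TBHQ 33.9, 31.2 and 31.4 FPKM. High values were found only in the 6 libraries with TBHQ before a stimulus, and the other 4 groups overlapped, save that by library totals alone the PIC libraries lay below those of the control and of TBHQ alone. TBHQ raised Gaa by 0.36 ± 0.0643 (SE, edgeR FDR = 5.29e-07) under LPS and by 0.45 ± 0.0575 (SE, edgeR FDR = 6.09e-09) under PIC. Glb1 (ENSMUSG00000045594, chr9:114230144-114303966, plus strand), the beta-galactosidase, had 21.4, 24.4 and 20.8 FPKM in the control and 17.3, 17.7 and 18.9 FPKM after TBHQ alone. Its TBHQ libraries lay below all others in FPKM, and by library totals alone below the control but not below every stimulated library, with a log2FC of -0.31 ± 0.0795 (SE, edgeR FDR = 0.000138). In the stimulated libraries it lay between 19.4 and 24.3 FPKM. Reads of Glb1 may be shared with Tmppe, which overlaps it on the same strand and had 26.6% of its counts, so the value is uncertain. Of the other glycosidases, Gusb (beta-glucuronidase) rose with TBHQ by 0.23 under LPS and 0.21 under PIC in log2FC. Its PIC libraries lay above the control in FPKM, but below it by library totals alone. Hexa, a subunit of beta-hexosaminidase, had a log2FC of -0.19 after TBHQ alone and -0.16 with LPS. Gla, an alpha-galactosidase, had -0.17 after TBHQ alone and 0.12 with TBHQ under PIC (edgeR FDR = 0.0369).

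Genes of lipid handling held the member that TBHQ raised most, both alone and before LPS. Lipa (ENSMUSG00000024781, chr19:34469718-34504874, minus strand), the acid lipase that frees cholesterol and fatty acids from lipoprotein lipids, had 89.3, 97.6 and 98.4 FPKM in the control and 138, 145 and 137 FPKM after TBHQ alone. Its levels were 69.1, 72.5 and 72.9 FPKM with LPS and 99.2, 102 and 105 FPKM with LPS + TBHQ. They were 62.9, 64.0 and 66.6 FPKM with PIC and 90.6, 89.8 and 94.6 FPKM with PIC + TBHQ. The stimuli lowered Lipa below every control library, TBHQ raised it in all 3 settings, and with TBHQ before PIC the libraries lay within the range of the control, or above it with TBHQ before LPS. By library totals alone the PIC + TBHQ libraries lay below the control and those of LPS + TBHQ overlapped it. The log2FC with TBHQ was 0.56 ± 0.0513 (SE, edgeR FDR = 1.7e-14) without a stimulus, 0.51 ± 0.0348 (SE, edgeR FDR = 1.47e-13) under LPS and 0.52 ± 0.0333 (SE, edgeR FDR = 1.03e-13) under PIC. Against the control it was -0.42 ± 0.0513 (SE, edgeR FDR = 5.62e-12) with LPS and -0.58 ± 0.0495 (SE, edgeR FDR = 6.5e-16) with PIC.

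Npc2 (ENSMUSG00000021242, chr12:84801336-84819926, minus strand), the soluble protein that hands cholesterol to the membrane transporter NPC1, went the other way. It had 78.4, 78.4 and 78.5 FPKM in the control and 64.7, 67.1 and 66.6 FPKM after TBHQ alone. LPS raised it to 128, 127 and 126 FPKM, against 82.0, 87.7 and 90.6 FPKM with LPS + TBHQ. PIC raised it to 155, 161 and 152 FPKM, against 120.5, 117 and 119 FPKM with PIC + TBHQ. No 2 of the 6 groups overlapped in FPKM, and by library totals alone the control and LPS + TBHQ overlapped. TBHQ lowered the level in each setting. The log2FC was 0.69 ± 0.00694 (SE, edgeR FDR = 7.03e-19) with LPS and 0.98 ± 0.0265 (SE, edgeR FDR = 9.84e-24) with PIC. With TBHQ it was -0.55 ± 0.0438 (SE, edgeR FDR = 1.76e-15) under LPS, -0.38 ± 0.0295 (SE, edgeR FDR = 1.79e-11) under PIC and -0.25 ± 0.0155 (SE, edgeR FDR = 4.91e-07) without a stimulus. The transporter gene Npc1 (ENSMUSG00000024413, chr18:12322749-12369457, minus strand) had 11.8, 11.4 and 11.7 FPKM in the control and 13.4, 13.7 and 13.5 FPKM after TBHQ alone. All 15 treated libraries were above the 3 control libraries, between 13.4 and 15.2 FPKM, but by library totals alone the PIC libraries overlapped the control. Its log2FC was 0.21 ± 0.0203 (SE, edgeR FDR = 4.07e-05) with TBHQ alone and 0.34 with LPS. Rmc1 overlaps Npc1 on the opposite strand with 34.9% of its counts, and the study's methods name strand-specific libraries, while the labels name directional and non-directional ones. The strand setting of the counting is not given, so it is uncertain whether reads of the pair were separated.

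Grn (ENSMUSG00000034708, chr11:102321141-102327874, plus strand), which encodes progranulin, a precursor cut into granulins in the lysosome, had 359.7, 376 and 369 FPKM in the control and 342, 368 and 386 FPKM after TBHQ alone. It had 375, 368 and 383 FPKM with LPS and 302, 303 and 308 FPKM with LPS + TBHQ. It had 342, 349 and 365 FPKM with PIC and 335, 329.5 and 331 FPKM with PIC + TBHQ. LPS + TBHQ libraries were the lowest of all, PIC + TBHQ libraries lay below those of PIC, and control, TBHQ and LPS libraries overlapped. By library totals alone the PIC + TBHQ libraries overlapped those of PIC, the LPS + TBHQ libraries overlapped those of PIC, and the LPS libraries lay below the control. The log2FC of Grn with TBHQ was -0.30 ± 0.018 (SE, edgeR FDR = 5.59e-09) under LPS and -0.07 ± 0.0278 (SE, edgeR FDR = 0.0902) under PIC. The latter had an FDR of 0.0379 with DESeq2, 0.0399 with RLE, and 0.0276 without replicate 1 of PIC. The difference between the 2 effects was 0.23 ± 0.0331 (SE, edgeR FDR = 0.00409). That difference had an FDR of 0.072 in limma on log2(FPKM + 1) and of 0.0779 with 0.1 as the constant. Psap, the precursor of the saposins that present lipids to hydrolases, and Asah1, the acid ceramidase, had log2FC values between -0.21 and 0.11 in the 8 comparisons of 2 groups.

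Of 7 membrane proteins, 4 were lower and 1 higher after TBHQ alone under each scaling, beside 14.8% and 14.2% of all genes with TMM. LPS raised 2 and lowered 4, beside 24% and 24.1% of all genes, and PIC raised 2 and lowered 3, beside 28.6% and 30.1%. The 2 raised by each stimulus lay near the share of all genes. With total library size 5 were lower in each, beside 33.3% and 48.5% of all genes. There 0 were higher by edgeR (0 at an unadjusted p below 0.05), beside 17.9% and 17.4%. Cd63 (ENSMUSG00000025351, chr10:128736858-128748691, plus strand), a tetraspanin of late endosomes and lysosomes, had 192, 192 and 192 FPKM in the control and 149, 160.3 and 160.4 FPKM after TBHQ alone. With LPS it stood at 203, 215 and 211 FPKM, and with LPS + TBHQ at 190.4, 191 and 204 FPKM. With PIC it stood at 231, 228 and 215 FPKM, and with PIC + TBHQ at 206, 207 and 214 FPKM. TBHQ alone was the lowest group without overlap, and the log2FC against the control was -0.29 ± 0.0328 (SE, edgeR FDR = 4.08e-08). In Cd63 11% of the words of 50 bases also occurred in other genes, among them the pseudogene Cd63-ps, so its value is uncertain. Lamp1 and Lamp2, the main glycoproteins of the lysosomal membrane, went apart after TBHQ alone, Lamp1 being higher by 0.15 and Lamp2 lower by -0.28 in log2FC. Scarb2, the receptor that carries glucocerebrosidase to lysosomes, was lower by -0.40 with LPS and -0.54 with PIC. Mcoln1, a calcium channel of the lysosomal membrane, was lower by -0.24 after TBHQ alone and -0.21 with PIC, and higher by 0.26 when TBHQ preceded PIC. Gpnmb, a glycoprotein of macrophage lysosomes, was lower in all 5 comparisons with the control, from -0.26 to -0.18. Cd68, a glycoprotein used as a macrophage marker, had log2FC values between -0.13 and 0.11 in the 8 comparisons of 2 groups.

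The transcription factor genes were the least abundant of the tested members in the control, and with both stimuli Tfeb fell and Tfe3 rose. Tfeb (ENSMUSG00000023990, chr17:48047955-48103344, plus strand) had 1.90, 1.98 and 2.39 FPKM in the control and 1.76, 1.78 and 1.96 FPKM after TBHQ alone. It had 1.51, 1.302 and 1.37 FPKM with LPS and 1.56, 1.88 and 1.61 FPKM with LPS + TBHQ. It had 0.801, 0.965 and 1.14 FPKM with PIC and 1.37, 1.35 and 1.59 FPKM with PIC + TBHQ. PIC libraries were the lowest and the control and TBHQ libraries overlapped. LPS libraries lay below the control and below LPS + TBHQ. The log2FC was -0.59 ± 0.117 (SE, edgeR FDR = 0.000207) with LPS and -1.12 ± 0.173 (SE, edgeR FDR = 6.06e-09) with PIC. TBHQ raised Tfeb under PIC by 0.57 ± 0.16 (SE, edgeR FDR = 0.00186). Under LPS the value was 0.27 ± 0.102 (SE, edgeR FDR = 0.143), and the difference between the 2 was 0.31 ± 0.19 (SE, edgeR FDR = 0.512), so the effects were not shown to differ.

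Tfe3 (ENSMUSG00000000134, chrX:7628799-7641441, plus strand) had 9.36, 8.42 and 8.77 FPKM in the control and 12.5, 12.3 and 12.8 FPKM after TBHQ alone. Levels were 12.5, 11.8 and 11.9 FPKM with LPS and 11.4, 12.4 and 12.0 FPKM with LPS + TBHQ. Levels with PIC were 12.6, 12.3 and 12.2 FPKM, and with PIC + TBHQ 12.3, 12.2 and 13.5 FPKM. The 15 treated libraries were all above the 3 control libraries and overlapped among themselves, but by library totals alone those of TBHQ alone were the highest and those of PIC the lowest of the 15, without overlap with the others. The log2FC against the control was 0.50 ± 0.0466 (SE, edgeR FDR = 1.34e-10) with TBHQ alone, 0.44 ± 0.0506 (SE, edgeR FDR = 8.91e-10) with LPS and 0.46 ± 0.0472 (SE, edgeR FDR = 1.24e-10) with PIC.

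The V-ATPase consists of a membrane sector that conducts protons and a cytosolic sector that hydrolyses ATP. Of 5 subunit genes here, 3 were lower after TBHQ alone under each scaling, beside 14.8% of all genes with TMM. LPS gave 1 higher and 1 lower with TMM, beside 24% and 24.1%. PIC gave 3 higher and 1 lower, beside 28.6% and 30.1%, or 1 and 3 with total library size, beside 17.4% and 48.5%. Atp6v0d2 (ENSMUSG00000028238, chr4:19876841-19922605, minus strand), the form of subunit d found in osteoclasts and macrophages, had 53.5, 64.0 and 63.5 FPKM in the control and 42.8, 45.9 and 42.1 FPKM after TBHQ alone. LPS libraries held 46.4, 53.2 and 52.9 FPKM and LPS + TBHQ libraries 33.0, 32.8 and 33.2 FPKM. PIC libraries held 49.9, 48.1 and 48.8 FPKM and PIC + TBHQ libraries 35.8, 38.1 and 37.9 FPKM. The lowest 6 libraries were those with TBHQ before a stimulus, and every TBHQ library lay below every library of its untreated counterpart. Its log2FC with TBHQ was -0.47 ± 0.0927 (SE, edgeR FDR = 1.2e-08) without a stimulus, -0.62 ± 0.0667 (SE, edgeR FDR = 3.43e-11) under LPS and -0.38 ± 0.0327 (SE, edgeR FDR = 1.13e-06) under PIC. The summed level of the osteoclast markers stood lower with TBHQ too in FPKM, while under PIC it overlapped without the constant of each library. Per library it was 121 to 134 FPKM in the control, 100.5 to 112 after TBHQ alone, 174 to 178 with LPS and 163 to 169 with LPS + TBHQ. In PIC libraries the sum was 188 to 200.3 FPKM, and 177 to 184 FPKM with PIC + TBHQ. Single markers differed in direction. Under LPS TBHQ raised 1 of 7 (Dcstamp, with group means of 22.4 and 25.5 FPKM) and lowered 1 (Nfatc1), and 0 were raised without replicate 1 of LPS (edgeR, 1 at an unadjusted p below 0.05). Under PIC it raised 1 (Dcstamp, 20.7 and 26.8 FPKM) and lowered 4, or 2 with total library size. The markers' part in the level of Atp6v0d2 was not tested. The ubiquitous form Atp6v0d1 was lowered by TBHQ alone too, with a log2FC of -0.15, but rose with TBHQ by 0.21 under LPS and 0.22 under PIC. Atp6v1h, a regulatory subunit of the cytosolic sector, was higher by 0.35 with LPS and 0.46 with PIC. The nucleotide-binding subunits Atp6v1a and Atp6v1b2 had log2FC values between -0.21 and 0.13 in the 8 comparisons of 2 groups, and the latter, Atp6v1a with PIC, turned to -0.09 with total library size.

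Other genes of the same compartment are given for comparison, and their counts stand beside shares of all genes called higher and lower of 14.2% and 14.8% after TBHQ alone, 24% and 24.1% with LPS, and 28.6% and 30.1% with PIC. For TBHQ before LPS these shares were 11.7% and 12.2%, and before PIC 15.8% and 15.5%. No list was tested against these shares, and some counts lay near them, such as those of the V-ATPase subunits raised by LPS and of the TFE and mTORC1 genes. Of 25 other lysosomal hydrolases, 11 were lower after TBHQ alone (12 with total library size). LPS gave 5 higher and 14 lower, PIC 4 and 13. These became 0 (edgeR, 2 at an unadjusted p below 0.05) and 16, and 2 and 21, with total library size, and the 5 became 3 without replicate 3 of LPS. TBHQ before LPS raised 8 and lowered 2, and before PIC raised 9 and lowered 1, or 13 and 1 with total library size. The 8 became 5 without replicate 3 of LPS + TBHQ. The 2 became 1 without replicate 2 or 3 of LPS or replicate 1 of LPS + TBHQ, and the 1 became 2 without replicate 1 of PIC + TBHQ or with RLE. Largest with the stimuli were Lgmn, the asparagine endopeptidase (-0.99 and -1.15), and the cathepsin Ctsf (-1.02 and -1.06). Dnase2a, the acid nuclease, rose with TBHQ by 0.30 under LPS and 0.47 under PIC.

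Of 15 other V-ATPase subunits tested, 8 were lower and 1 higher after TBHQ alone under each scaling. LPS gave 4 higher and 2 lower and PIC 8 and 2, which total library size turned to 4 and 8, and 4 and 7. Atp6v1g2 was higher by 0.90 with TBHQ and 1.16 with PIC. Of 11 genes that sort hydrolases, LPS raised 2 and lowered 6, and PIC raised 3 and lowered 5, or 1 and 6, and 2 and 8, with total library size. They included Gnptab, which starts the phosphate tag (-0.66 and -0.73), the receptor Sort1 (-0.54 and -1.09), and the adaptor Gga2, which TBHQ raised by 0.44 under LPS and 0.69 under PIC.

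Of 16 further membrane and transport genes, LPS raised 6 and lowered 4, and PIC raised 7 and lowered 6, or 5 and 4, and 5 and 6, with total library size. The 4 became 2 without replicate 1 of LPS. The peptide transporter Slc15a3 rose by 2.75 with LPS and 3.29 with PIC. The metal transporter Slc11a1 rose by 0.99 and 0.95, and by a further 0.63 and 0.64 when TBHQ came first. Tpcn1, an ion channel of endolysosomes, had log2FC values of -0.70 with LPS and -1.32 with PIC, and the difference between the TBHQ effects was 0.33 ± 0.0352 (SE, edgeR FDR = 0.00215). Of 20 genes of the TFE family and of mTORC1 control at the lysosome, LPS raised 6 and lowered 6, and PIC raised 8 and lowered 7, or 4 and 9, and 6 and 11, with total library size. The 6 lower became 3 without replicate 2 of the control and 2 without replicate 2 of LPS, and the 7 became 4 without replicate 2 of PIC. Rragd, a GTPase that recruits mTORC1, fell by 2.22 with PIC on the log2 scale, and its log2FC was -1.24 with TBHQ alone and -1.19 with LPS. Tfec, a close relative of Tfeb, rose by 1.03 with TBHQ alone, 0.70 with LPS and 1.23 with PIC. Mitf rose by 0.40, 0.47 and 0.79 in the same order, and the log2FC with TBHQ before the stimulus was -0.30 for LPS and -0.26 for PIC. Of 4 tested cathepsin inhibitors, LPS raised 2 and lowered 2 under each scaling, and Cst7 had -1.10 there. Stfa1, Stfa2 and Stfa3 did not pass the filter on low counts.

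Promoter windows of 300 bases (250 before to 50 after the start) were at hand for 29 of the 36 genes in RefSeq on GRCm38.p6. The palindrome CACGTG, which reads the same on both strands, was found in 10 of the 29 (34.5%), against 8.09% of 27025 genes with a window. Its extension GTCACGTG, searched on both strands and lying within CACGTG matches, was found in 7 (24.1%), against 2.55%. TGACNNNGC, the core letters of the antioxidant response element, was found on either strand in 6 (20.7%), against 14% of all genes. The 10 with CACGTG were Ctsa, Ctsd, Ctsl, Lamp1, Gla, Glb1, Gaa, Mcoln1, Atp6v0d1 and Atp6v1a. After TBHQ alone 1 of the 10 was higher (Lamp1) and 6 were lower, and of the 19 without the word 2 were higher and 10 lower. TBHQ raised 5 of the 10 under LPS and lowered 0 (edgeR, 1 by DESeq2, 1 at an unadjusted p below 0.05, and 1 by edgeR with the replicate block, with a mean of at least 50 counts or without replicate 1 of LPS). Under PIC it raised 7 (5 with RLE) and lowered 2, or 1 without replicate 3 of PIC or replicate 2 of PIC + TBHQ. Of the 19 without it, 5 were raised and 8 lowered under LPS, and 7 and 6 under PIC, or 10 and 5 there with total library size, where 7 of the 10 with the word were raised and 0 lowered (edgeR, 0 at an unadjusted p below 0.05). Among all genes tested with a window, 1135 held the word and 8427 did not. TBHQ alone raised 17.6% and lowered 16.7% of the former, and 15.4% and 15.9% of the latter. Under LPS these shares were 16.9% and 9.69%, and 12.9% and 13.2%. Under PIC they were 22.6% and 15.3%, and 17.3% and 16.5%. These counts are a description of letters in windows and say nothing about binding.

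The stretches around CACGTG are printed for Ctsa, Ctsd, Ctsl and Gaa, 4 genes that hold the word before their start and rose with TBHQ under both stimuli. Each reads 5′ to 3′ along the gene's strand, in lower case with CACGTG in capitals. On GRCm38.p6 the positions are chr2:164833745-164833772 on the plus strand for Ctsa, chr7:142387904-142387941 on the minus strand for Ctsd, chr13:64370735-64370770 on the minus strand for Ctsl and chr11:119267807-119267844 on the plus strand for Gaa. The word begins 12, 98, 236 and 140 bases before the start in these genes. Another CACGTG in Ctsd begins 245 bases before the start, at chr7:142388051-142388077 on the minus strand, and is the last line.
Ctsa: acaatgagcaaactgtCACGTGatgcag
Ctsd: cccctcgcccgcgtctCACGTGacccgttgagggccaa
Ctsl: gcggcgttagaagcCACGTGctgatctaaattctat
Gaa: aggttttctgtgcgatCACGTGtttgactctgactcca
Ctsd: tccccCACGTGacctgtatccagtcat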

How the data were processed

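RNA from 18 RAW 264.7 cultures, 3 biological replicates per group according to the study's methods, was sequenced as poly(A) RNA by a company for the authors. The deposited gene counts came from featureCounts 1.5.0-p3 after alignment with HISAT2 2.0.5, and StringTie 1.3.3b was also named, per the submitters' processing notes. The deposited FPKM values were made by the same company for the authors. They equalled counts per gene length and library total times a further constant for each library (0.943 to 1.12), whose group means ran from 0.947 (control) to 1.11 (PIC) and whose origin is not given. The strand setting of the counting is not given in the sources used here. GRCm38 and mm39 were both named as the build. Gene positions are those of the authors' files, and 35 of 36 members had another start than in GENCODE M21 on GRCm38.

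Counts were tested with edgeR 4.0.16 in R 4.3.3 (quasi-likelihood test, TMM factors, filterByExpr) over all 18 libraries and 13691 genes, and an FDR (Benjamini-Hochberg) below 0.05 over all genes was a call. In all, 9 contrasts were tested, the last being the difference between the TBHQ effects with PIC and LPS. Alternatives were RLE factors, total library size, no filter on low counts, a mean of at least 50 counts, DESeq2 1.42.0, limma 3.58.1 on log2(FPKM + 1) and log2(FPKM + 0.1) with 16870 genes at a mean of at least 0.1 FPKM, only the compared groups, a replicate block, an FDR below 0.01 with an absolute log2FC above 2, and leaving out each library. The order of libraries by counts over library totals alone was added after the data were seen. Plots were drawn with matplotlib 3.10.9, and tables were made with scipy 1.17.1, numpy 2.4.6 and pandas 2.3.3 in Python 3.11.15.

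Members were given in full by rule: Tfeb and Tfe3, the 3 highest and 3 lowest log2FC among called members with no overlap of libraries in each of TBHQ, LPS and PIC against the control and of TBHQ before each stimulus, and those called in the difference. Of each other list (hydrolases, V-ATPase subunits, sorting, membrane and transport, TFE family and mTORC1, cathepsin inhibitors), some of those with the largest changes were named. Other named genes were chosen after their values were seen. The members and lists were chosen with earlier results of these data known. Totals were 14423390 to 18851626 counts per library, and floors of 3 counts cover counting error only. Results for 1 further list of markers are not reported here. Promoter windows came from RefSeq on GRCm38.p6.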

Additional observations from a re-analysis of the deposited data

Results flagged for a closer look

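For 2 members the effect of TBHQ differed between the stimuli by a test of that difference. In Ctsc the log2FC with TBHQ under PIC minus that under LPS was -0.3031 (edgeR FDR = 0.00778), with the 3 PIC + TBHQ libraries below the 3 PIC libraries and the 3 LPS + TBHQ libraries below the 3 LPS libraries. In Grn it was 0.2292 (edgeR FDR = 0.00409), and its 3 LPS + TBHQ libraries lay below the 3 LPS libraries.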

How the results depend on the processing

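The alternatives gave 1657 values of the log2FC for 109 results of single genes, not for every member in every comparison. Of these values, 1649 kept their direction and their side of the threshold. For Grn, the difference between the TBHQ effects lost its call with limma on either FPKM scale (2 values), and its log2FC with TBHQ under PIC gained a call in 5 settings. Atp6v1a with PIC turned to -0.0858 with total library size. By library totals alone the PIC libraries of Gusb turned from above to below the control. The cause was not tested for either gene.

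Among the scalings, counts of called members moved most with total library size, and those of all genes moved with them (48.5% in place of 30.1% lower with PIC). There LPS lowered 22 in place of 14, PIC raised 6 in place of 13 and lowered 24 in place of 15, and PIC + TBHQ lowered 21 in place of 10 against the control. Between PIC and LPS 5 were higher in place of 12 and 17 lower in place of 5, and the difference in TBHQ effects was positive in 5 in place of 1. The deposited FPKM carry a constant that differs by group, so limma on FPKM is no test without such scaling. By library totals alone the order of libraries was as in FPKM in 195 of 280 cases, with 9 reversed. With limma 3 in place of 5 were lower with PIC than with LPS on both FPKM scales, and the positive difference had 0 members on both scales by limma, 2 by DESeq2 and 1 by edgeR, where 9 had an unadjusted p below 0.05. Beyond an FDR of 0.01 and an absolute log2FC of 2, 0 members were higher and 0 lower in each of the 5 comparisons with the control. That threshold is stricter by construction, and for the other shifts the cause was not tested.

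Leaving out 1 library at a time, the members higher and lower ranged over 4 to 4 and 19 to 20 (TBHQ against control), 8 to 9 and 13 to 15 (LPS), 13 to 15 and 13 to 16 (PIC), 11 to 12 and 10 to 15 (LPS + TBHQ), and 12 to 13 and 9 to 10 (PIC + TBHQ). They ranged over 9 to 11 and 7 to 10 (LPS + TBHQ against LPS), 10 to 13 and 7 to 10 (PIC + TBHQ against PIC), 10 to 13 and 2 to 6 (PIC against LPS), and 1 to 2 and 1 to 1 (difference in TBHQ effects). The lower count between PIC and LPS was 2 without replicate 3 of LPS, and 3 without replicate 1 or 2 of PIC. The positive difference was 2 without replicate 1 or 2 of LPS, replicate 2 of PIC or replicate 3 of LPS + TBHQ.

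The replicate numbers were not taken as pairs, since deviations of libraries with the same number correlated at -0.0444 to 0.0645 over 45 pairs of such libraries. With the replicate block, LPS + TBHQ had 15 in place of 14 members lower than the control and 11 in place of 10 lower than LPS, PIC + TBHQ had 15 in place of 14 higher than PIC, and PIC had 13 in place of 12 higher than LPS, while the other counts were as without it (4 higher and 19 lower for TBHQ alone). At these depths Ctsh lay at or under the floor of 3 counts in every library, and no fold was computed for it.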
